A study of Homo sapiens with 36 samples.

Results

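miR-31 is a microRNA of the short arm of chromosome 9, and its 2 arms, hsa-miR-31-5p and hsa-miR-31-3p (miR-31-5p and miR-31-3p here), were chosen by name among the 1508 miRNAs listed for this time course of senescence. The cells were WI-38, normal fibroblasts from human lung with a limited number of divisions, and their small RNA was read in 36 libraries that make up 18 conditions of 2 biological replicates. Proliferating untreated cells, labelled as young, served as control (Ctrl). Plasma membrane damage-dependent senescent (PMD-Sen) cells had been exposed to 0.0095% SDS, a detergent, for 24 h, and DDR-Sen cells, named for the DNA damage response, to 250 nM doxorubicin (DXR), a drug that breaks DNA, for 24 h. Both series ran from D0 to D16, where D stands for the day counted from the end of the exposure, with a collection every day up to D4 and then on D6, D8 and D16. Replicative senescent (RS) cells were passaged to a population doubling level of 54 to 56. All of the cells were WI-38, so the values describe 1 cell strain. The SDS and DXR series shared the same 2 Ctrl libraries. No library came from untreated cells kept for the same days, so treatment cannot be told apart from time in culture.

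A miRNA gene is transcribed as a longer RNA, cut to a hairpin, and then cut again to a duplex of which 1 strand, the guide, is kept by an Argonaute protein while the other strand is mostly lost. The guide pairs with messenger RNAs chiefly through its seed, bases 2 to 8 counted from its 5′ end, and lowers their stability and translation. miR-31 is made from within MIR31HG, a long noncoding RNA gene near CDKN2A, the gene of the cell cycle inhibitor p16 and of ARF. It is known for targets in cell adhesion and the actin cytoskeleton such as RHOA, and deletions of CDKN2A in tumours can take miR-31 with them. MIR31HG RNA has itself been described as acting with Polycomb proteins at the p16 promoter.

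The hairpin gene MIR31 lies at chr9:21512115-21512185 on the minus strand (GRCh38.p14, RefSeq). In GENCODE release 44, 21 of the 27 MIR31HG transcripts (chr9:21380073-21559891, minus strand) span this position and 0 hold it in an exon, so the hairpin is intronic. CDKN2A (chr9:21967752-21995301, minus strand) lies 456 kb away, and the protein-coding gene MTAP lies between them. The hairpin is shown because both arms come from it, with miR-31-5p, bases 8 to 28 of the 71, in capitals.
MIR31: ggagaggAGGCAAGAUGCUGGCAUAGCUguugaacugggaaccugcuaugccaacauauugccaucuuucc
The mature miR-31-5p is 21 bases long (chr9:21512158-21512178, minus strand), with its seed in capitals.
hsa-miR-31-5p: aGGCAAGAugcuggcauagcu
Of 2370 mature miRNA names searched, 0 others had the same 7-base seed. The only other name with the first 6 of those bases was miR-6809-5p, which had at most 3 counts in a library. The nearest other mature sequence differed from miR-31-5p at 6 bases when slid by up to 2 bases. Every miR-31 count was whole, so the counts showed no sign of reads split with another miRNA, although single reads were not examined.

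The 2 arms were very unequal in abundance. Over the 36 libraries, miR-31-5p had 135420 counts and miR-31-3p had 53. The 3p arm was thus 0.0391% of both (95% exact Clopper-Pearson interval, 0.0293% to 0.0512%, which covers counting error only). miR-31-3p had 0 counts in 17 libraries, at most 5 in any, and no more than 3, the limit that a count of 0 allows, in 29. It did not pass the low-count filter, and it was not tested for differential expression. miR-31-5p passed the filter together with 359 other miRNAs. It had 701 to 10739 counts and took 0.348% to 2.11% of a library, and it ranked 26 of the 360 by mean level, or 28 in Ctrl.

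Levels are given as CPM, counts scaled to a common library total, here with TMM-scaled totals. A lower share of the library in these bulk samples can be fewer copies per cell, more of other miRNAs or a change in the cells present, and these cannot be told apart. Library totals ranged from 81668 to 1933435 counts (median, 376989), and the PMD-Sen D16 libraries differed most in total among the members of a pair. Fibroblast and mesenchyme miRNAs, 8 names in 7 rows since miR-199a-3p and miR-199b-3p share a row, summed to 63540 to 143544 CPM in every library. Of these, miR-21-5p alone had 37300 to 103148 CPM, whereas miR-10b-5p had 0 to 32.3 CPM and did not pass the filter. The miRNAs of epithelium summed to 14.6 to 163 CPM, those of endothelium to 18.4 to 200 CPM, those of blood (3 of 5 names were listed) to 0 to 12.6 CPM, those of muscle to 0 to 41.9 CPM, those of neurons to 0 to 17.6 CPM and the liver miRNA miR-122-5p to 6.44 to 264 CPM.

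miR-31-5p was present in all 18 conditions, and its condition means spanned 4.59-fold. The highest mean was 17563 ± 2294 CPM (SD, n = 2) in PMD-Sen cells at D2, and the lowest was 3830 ± 394 CPM (SD, n = 2) in DDR-Sen cells at D16. From high to low by mean log2 CPM, the order was PMD-Sen D2, D1 and D3, DDR-Sen D0 and D1, PMD-Sen D6, DDR-Sen D2, PMD-Sen D0 and D4, RS, DDR-Sen D3, PMD-Sen D8, DDR-Sen D4, Ctrl, DDR-Sen D6, PMD-Sen D16, DDR-Sen D8 and DDR-Sen D16. The pooled SD of replicates was 0.27 in log2 CPM. Of the 17 steps between neighbours in this order, 3 were larger than that SD: PMD-Sen D2 to PMD-Sen D1 (0.32), PMD-Sen D1 to PMD-Sen D3 (0.27) and DDR-Sen D8 to DDR-Sen D16 (0.53). The step from PMD-Sen D1 to PMD-Sen D3 (0.272) was barely above the SD (0.269). The other steps were smaller than this SD, which is that of single libraries, and no step was tested. In 7 conditions both libraries were above both Ctrl libraries, in 4 both were below, and in 6 the values overlapped. Across the 17 conditions, 40% to 68.3% of the 360 tested miRNAs (median, 55.3%) did not overlap with Ctrl.

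**Figure D1:**
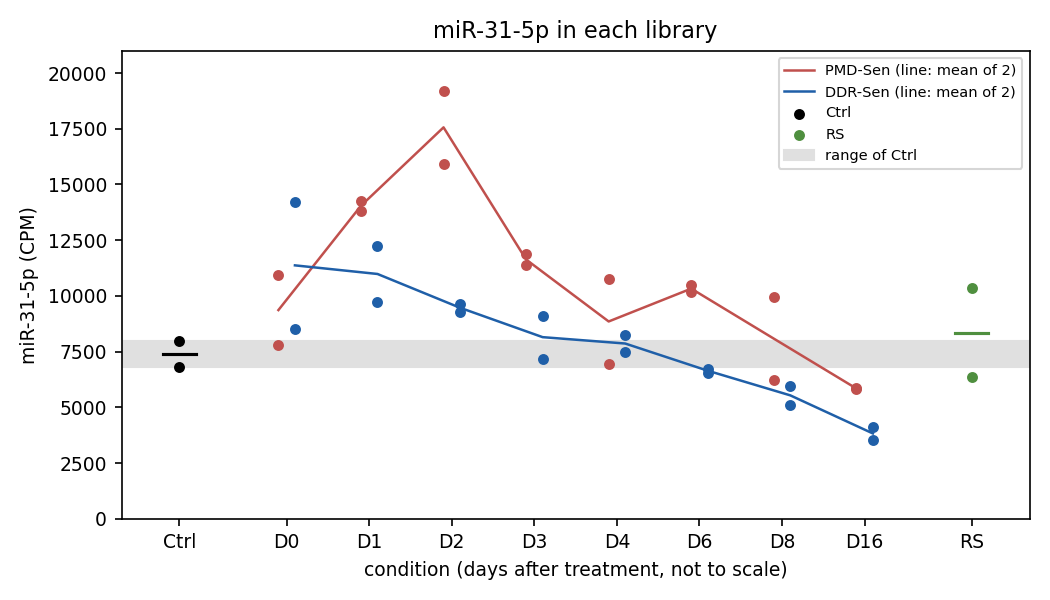
miR-31-5p level (CPM, y axis) in each of the 36 libraries by condition (x axis, days not to scale), with points for libraries, lines or short bars for the mean of 2 and a grey band for the range of the 2 Ctrl libraries. PMD-Sen values peaked at 15941 and 19184 CPM on D2, while the DDR-Sen means were lower at each later day and the last 2 libraries had 3551 and 4109 CPM on D16.

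To see how miR-31-5p changed after membrane damage, each PMD-Sen time point was compared with Ctrl, whose libraries had 7962 and 6810 CPM. miR-31-5p rose at D2 and did not meet both thresholds of the study, a log2 fold change beyond 1 in either direction with an unadjusted p under 0.05, at any of the other 7 days. On D2 the libraries had 15941 and 19184 CPM, both above every other library of the series. The log2 fold change was 1.25 ± 0.25 (SE), or 2.38-fold (95% interval, 1.67 to 3.38), with an adjusted p of 0.00258 (edgeR quasi-likelihood test, Benjamini-Hochberg adjustment over 360 miRNAs). In that comparison 6.39% of the tested miRNAs met both thresholds and 2.5% had an adjusted p below 0.05, and miR-31-5p had the third lowest p. The thresholds were still met when any 1 of the 4 libraries was left out, but the adjusted p was 0.0801 without Ctrl replicate 2 and 0.0771 without PMD-Sen D2 replicate 2 (edgeR).

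On D0 the PMD-Sen libraries had 10918 and 7813 CPM, overlapping Ctrl (log2 fold change 0.34 ± 0.25, 5.28% of miRNAs called), and the value was 0.050 without PMD-Sen D0 replicate 1. On D1 they had 13829 and 14263 CPM, both above Ctrl (0.93 ± 0.25, 7.22% called). This D1 value missed the fold threshold although its adjusted p was 0.0338, and 2.22% of the miRNAs had an adjusted p below 0.05. The adjusted p was 0.052 with DESeq2 size factors, 0.0939 with total counts, 0.147 in a fit of the 4 libraries alone and 0.084 to 0.445 with a library left out (edgeR). On D3 the libraries had 11405 and 11862 CPM, again both above Ctrl (0.66 ± 0.25, 2.78% called). On D4 they had 10778 and 6931 CPM, and the pair lay on either side of the upper Ctrl library (0.26 ± 0.25, 6.39% called). On D6 they had 10158 and 10498 CPM, both above Ctrl (0.48 ± 0.25, 9.17% called). By D8 the values of 6223 and 9947 CPM enclosed those of Ctrl (0.13 ± 0.25, 13.3% called). On D16 both libraries, at 5844 and 5849 CPM, were below Ctrl, and the log2 fold change of -0.34 ± 0.25 missed both thresholds (16.9% called). Of all tested miRNAs, 42.2% did not overlap with Ctrl on D1, 48.1% on D3, 56.1% on D6 and 67.8% on D16. The D4 and D8 pairs were 1.55-fold and 1.60-fold apart, and without 1 library the sign turned: D4 gave -0.11 without replicate 1 and D8 gave -0.16 without replicate 2.

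After DXR, miR-31-5p met both thresholds at 0 of the 8 days (edgeR, and likewise DESeq2), although the unadjusted p was under 0.05 on 3 days, D0, D1 and D16. Its level was highest at the start. On D0 the DDR-Sen libraries had 8538 and 14206 CPM, both above Ctrl although 1.66-fold apart (log2 fold change 0.62 ± 0.25, unadjusted p = 0.0168, adjusted p = 0.435, edgeR, 3.89% called). Without DDR-Sen D0 replicate 2 the value was 0.25 (unadjusted p = 0.331), and without DDR-Sen D0 replicate 1 it was 0.96 (edgeR). On D1 they had 9719 and 12252 CPM, both above Ctrl (0.57 ± 0.25, unadjusted p = 0.0266, adjusted p = 0.254, edgeR, 6.94% called), and the unadjusted p was 0.169 with total counts. On D2 they had 9292 and 9647 CPM, still above Ctrl (0.36 ± 0.25, 6.94% called). Of all tested miRNAs, 41.7% did not overlap with Ctrl on D0, 53.1% on D1 and 49.7% on D2. The next time points overlapped Ctrl. On D3 the libraries had 7181 and 9121 CPM (0.14 ± 0.25, 5.83% called). On D4 they had 7483 and 8247 CPM (0.09 ± 0.25, 9.17% called). The signs on D3 and D4 were not stable, since scaling by total counts gave -0.049 and -0.17.

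From D6 both DDR-Sen libraries were below both Ctrl libraries. A lack of overlap with Ctrl, in either direction, held for 60.6% of tested miRNAs on D6, 60.8% on D8 and 68.3% on D16. On D6 the DDR-Sen libraries had 6731 and 6560 CPM (-0.15 ± 0.25, 11.7% called), and on D8 they had 5975 and 5103 CPM (-0.41 ± 0.25, 12.8% called). On D16 they had 3551 and 4109 CPM, the lowest of all 36 libraries. The D16 log2 fold change was -0.95 ± 0.25, with a ratio of 0.519 to Ctrl (95% interval, 0.365 to 0.737). It missed the fold threshold, which 21.4% of miRNAs met together with the p threshold. Its adjusted p was 0.0056 (edgeR), and 23.1% of miRNAs had an adjusted p below 0.05. With scaling by total counts the value was -1.01 and met both thresholds, and so it did without Ctrl replicate 2 (-1.07) or without DDR-Sen D16 replicate 2 (-1.14).

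**Figure D2:**
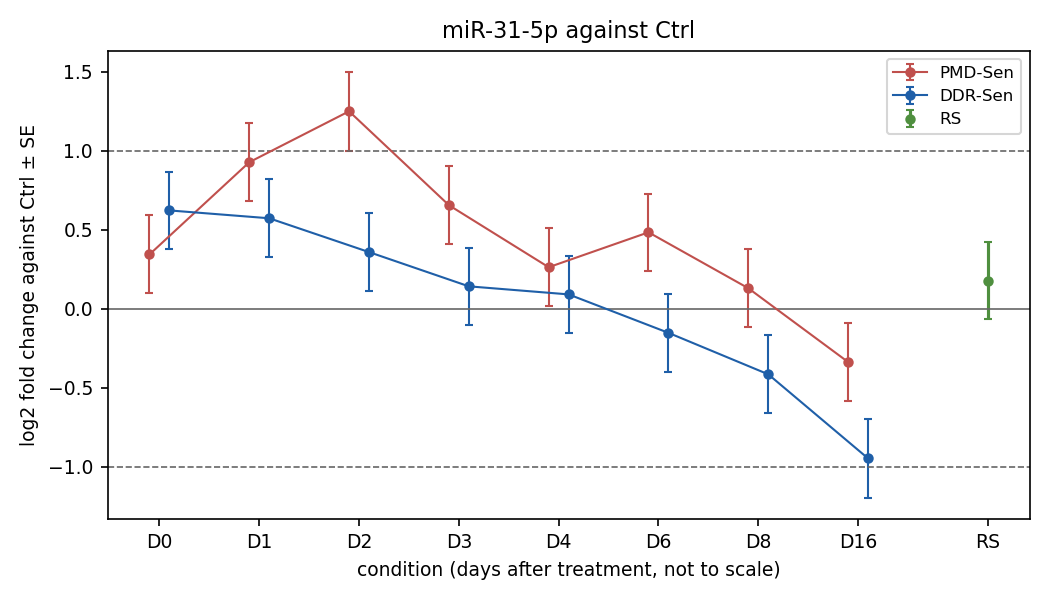
log2 fold change of miR-31-5p against Ctrl (y axis, ± SE from the edgeR model of 18 conditions) at each day of the 2 series and in RS cells (x axis, days not to scale), with dashed lines at the fold threshold of 1 in either direction. PMD-Sen D2 (1.25) is the only point beyond a dashed line, and DDR-Sen D16 (-0.95) comes closest to the lower one.

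RS cells, which had received neither agent, had 10345 and 6369 CPM, values that enclosed both Ctrl libraries. The log2 fold change against Ctrl was 0.18 ± 0.25, where 22.2% of the miRNAs met both thresholds, and it was -0.10 without RS replicate 1. DDR-Sen cells at D16 had less miR-31-5p than RS cells, by -1.12 ± 0.25 in log2 (adjusted p = 0.00521, edgeR), in a comparison where 4.44% of miRNAs had an adjusted p below 0.05. Both DDR-Sen libraries were below both RS libraries, but the share of all miRNAs without overlap was not computed against RS. Against Ctrl that share was 68.3% at DDR-Sen D16 and 67.8% at PMD-Sen D16, so a lack of overlap alone says little. The call of DDR-Sen D16 against RS was lost without RS replicate 1 (-0.87) or without DDR-Sen D16 replicate 1 (-1.02). It was also lost in a fit of the 4 libraries alone (-1.09). PMD-Sen cells at D16 differed from RS cells by -0.51 ± 0.25 (95% interval, -1.02 to -0.01, unadjusted p = 0.0442, adjusted p = 0.177, edgeR, 9.17% called). Here too both libraries were below both RS libraries, and the share of all miRNAs was again not computed against RS. The difference became called without RS replicate 2 (-0.80, adjusted p = 0.0299, edgeR), but not with the tested miRNAs held at the 360 of all libraries (-0.71, adjusted p = 0.069), and it was -0.25 without RS replicate 1. The RS pair was 1.62-fold apart.

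To follow the direction of change within each series, the late days (mean of D6, D8 and D16) were compared with the early days (mean of D0, D1 and D2), without use of Ctrl. No untreated cells were sampled on these days, so a change over days cannot be told apart from time in culture. miR-31-5p fell in both series. In PMD-Sen cells it fell by 0.75 on the log2 scale (SE 0.14, adjusted p = 0.000163, edgeR), to 0.595 of the early level, where 33.6% of miRNAs had an adjusted p below 0.05. In DDR-Sen cells it fell by 1.02 (SE 0.14, adjusted p = 3.48e-06, edgeR), to 0.492 of the early level, where 27.5% did. The difference between these declines was 0.27 ± 0.20 (95% interval, -0.13 to 0.68, adjusted p = 0.388, edgeR), and 15.6% of miRNAs differed by the adjusted p. Without DDR-Sen D0 replicate 1 it was called (0.53, adjusted p = 0.0432, edgeR), but not with the tested miRNAs held at 360 (0.38, adjusted p = 0.194). The PMD-Sen decline depended on D1 and D2, since against D0 alone it was -0.25 and the adjusted p was 0.378 (edgeR).

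Across the 16 libraries of a series, log2 CPM of miR-31-5p was lower at later days. In DDR-Sen cells Pearson's r was -0.927 (permutation p = 1e-05, two-sided, adjusted p = 6e-05 over 6 relations) and Spearman's rho was -0.929 (permutation p = 1e-05, adjusted p = 6e-05). A p of 1e-05 is the smallest that 100000 permutations can give. The permutations also take the libraries of successive days as independent. Without the D16 libraries, r was still -0.882 (permutation p = 1e-05). In PMD-Sen cells Pearson's r was -0.70 (permutation p = 0.00171, adjusted p = 0.00513), with a Spearman's rho of -0.686 (permutation p = 0.00446, adjusted p = 0.0134). Without the D16 libraries, that r was -0.461 (permutation p = 0.0982), so the PMD-Sen relation was weaker over the shorter range of days. The PMD-Sen level was also not monotonic, with the D0 libraries below those of D1 and D2.

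PMD-Sen and DDR-Sen cells were then compared at the same days, with an adjusted p below 0.05 as the call. Over D1 to D16, with the day as a factor and 28 libraries in the fit, miR-31-5p was higher in PMD-Sen cells by 0.58 ± 0.08 in log2 (SE), or 1.5-fold (95% interval, 1.34 to 1.68, adjusted p = 4.42e-06, edgeR). Of 346 tested miRNAs, 23.4% differed by this call, and miR-31-5p had the third lowest p. Without the D2 libraries the value was 0.50 (adjusted p = 0.000241, edgeR). The fit takes the libraries of successive days as independent, which was not tested. If they are not, the SE and the interval may be too narrow. Both PMD-Sen libraries were above both DDR-Sen libraries on 6 of the 7 days, the exception being D4, and 1.67% of 360 miRNAs (6, with miR-31-5p among them) had this on at least as many days.

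By single day the difference was called only on D2. There the libraries had 15941 and 19184 CPM in PMD-Sen cells and 9292 and 9647 CPM in DDR-Sen cells, a difference of 0.89 ± 0.25 (adjusted p = 0.0336, edgeR, 4.17% called). The D2 call was lost without PMD-Sen D2 replicate 2 (0.76), DDR-Sen D2 replicate 1 (0.80) or DDR-Sen D2 replicate 2 (0.85). On D0 the sign was the other way, at -0.28 ± 0.25 (1.67% called), but the libraries overlapped and the value was 0.04 without DDR-Sen D0 replicate 2. On D1 the difference was 0.35 ± 0.24 (1.94% called), on D3 it was 0.51 ± 0.25 (0.833% called) and on D4 it was 0.17 ± 0.24 (3.33% called). On D6 the difference was 0.64 ± 0.25 (0.278% called), on D8 it was 0.54 ± 0.25 (0% called) and on D16 it was 0.61 ± 0.25 (0.556% called). The D8 value ranged from 0.29 without PMD-Sen D8 replicate 2 to 0.92 without PMD-Sen D8 replicate 1. At D8 edgeR called 0 of the 360 miRNAs by the adjusted p, with 45 at an unadjusted p under 0.05 and 4 called by DESeq2. On D3, D6, D8 and D16 the unadjusted p of miR-31-5p was 0.045, 0.0147, 0.0342 and 0.019, and the adjusted p was 0.368, 0.273, 0.36 and 0.36 (edgeR).

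**Figure D3:**
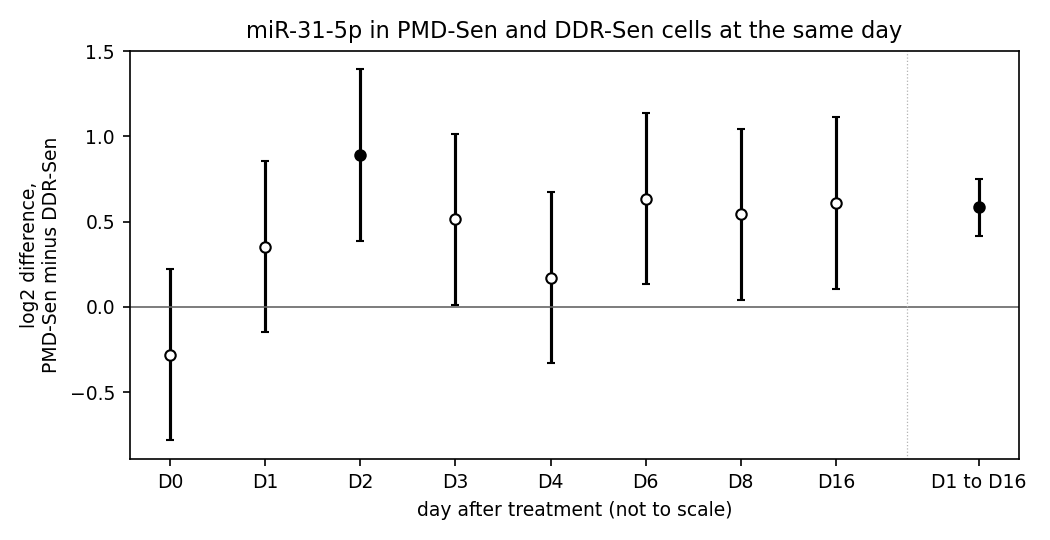
Difference of miR-31-5p between PMD-Sen and DDR-Sen cells (log2, y axis) at each day and over D1 to D16 (x axis, days not to scale), with 95% intervals from edgeR and filled points where the adjusted p was below 0.05. All values after D0 are positive, and D2 (0.89) and the value over D1 to D16 (0.58) are filled.

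The scaling of the libraries moved this comparison. In the fit of all 36 libraries, the TMM factors of D1 to D16 were 0.858 to 1.04 in DDR-Sen and 0.937 to 1.12 in PMD-Sen libraries. The fit over D1 to D16 computed its own factors from its 28 libraries. With total counts in place of TMM the median of all tested miRNAs over D1 to D16 moved from 0.07 to 0.18 while miR-31-5p moved from 0.58 to 0.71. Relative to that median, miR-31-5p was 0.52 higher with TMM and 0.53 higher with total counts.

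miR-31-3p, the arm that is mostly lost from the duplex, was seen at too few counts to follow by library. Its counts in replicates 1 and 2 were 0 and 4 in Ctrl and 1 and 2 in RS. The largest counts, 5 each, were in replicate 1 of PMD-Sen D1, D2 and D16 and in replicate 2 of DDR-Sen D6. All 4 of these values were above the limit that a count of 0 allows. Summed over libraries, the 3p arm had 13 counts at D0 to D2 and 6 at D6 to D16 in PMD-Sen cells, and 15 and 8 in DDR-Sen cells. As a share of both arms this was 0.0689% (95% exact interval, 0.0367% to 0.118%) and 0.0198% (0.00726% to 0.0431%) in PMD-Sen cells. In DDR-Sen cells it was 0.0494% (0.0277% to 0.0815%) and 0.0572% (0.0247% to 0.113%). The DDR-Sen intervals overlapped widely, and those of PMD-Sen overlapped in part.

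The ratio of the arms was also taken per library, as log2 of the 5p over the 3p counts with 0.5 added to each. It averaged 11.76 in PMD-Sen and 11.38 in DDR-Sen libraries over D1 to D16 (difference 0.38, n = 14 each, permutation p = 0.337 with series labels permuted within days, two-sided). With 2 added in place of 0.5 the difference was 0.51 (permutation p = 0.0403), so the call turned on the pseudocount. With counts summed over replicates the difference was 0.0023 (exact permutation p = 1, two-sided). Against day, the ratio had r of 0.399 (permutation p = 0.128, adjusted p = 0.223) and rho of 0.598 (permutation p = 0.0163, adjusted p = 0.0325) in PMD-Sen cells. In DDR-Sen cells r was -0.256 (permutation p = 0.346, adjusted p = 0.415), with a rho of 0.03 (permutation p = 0.922, adjusted p = 0.922). miR-31-3p itself had r of -0.37 in PMD-Sen (permutation p = 0.149, adjusted p = 0.223) and -0.163 in DDR-Sen cells (permutation p = 0.559, adjusted p = 0.559), with rho of -0.464 (permutation p = 0.074, adjusted p = 0.111) and -0.392 (permutation p = 0.136, adjusted p = 0.163). Without the D16 libraries, r was -0.503 and -0.52 for miR-31-3p, and 0.748 and 0.385 for the ratio, in PMD-Sen and DDR-Sen cells. In libraries with 0 counts of the 3p arm, 8 of 16 in each series, the ratio only restates the 5p count and so moves with depth. PMD-Sen libraries held 1208333 counts in all at D0 to D2 and 4107336 at D6 to D16, from 6 libraries each. The relation of the PMD-Sen ratio to day therefore cannot be told apart from depth.

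The miRNAs with the profile most like that of miR-31-5p were ranked by Pearson's r of log2 CPM over the 18 condition means, as a description without a test, since all of them come from the same libraries. The 5 highest of 359 were miR-130b-3p (0.772), miR-744-5p (0.766), miR-1910-5p (0.765), miR-125b-1-3p (0.757) and miR-92a-3p (0.745). Ranked by Spearman's rho, 3 of these 5 were among the highest 5. Their mature sequences, given by RefSeq with seeds in capitals, are shown because 0 of the 5 share the miR-31-5p seed.
hsa-miR-130b-3p: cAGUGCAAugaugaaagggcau
hsa-miR-744-5p: uGCGGGGCuagggcuaacagca
hsa-miR-1910-5p: cCAGUCCUgugccugccgccu
hsa-miR-125b-1-3p: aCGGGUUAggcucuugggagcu
hsa-miR-92a-3p: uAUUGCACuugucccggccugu
miR-92a-3p is a product of the miR-17-92 cluster, which promotes proliferation, and miR-125b-1-3p is the less abundant arm of a miR-125b hairpin. All 5 resembled miR-31-5p in their low level at DDR-Sen D16, where the log2 fold changes against Ctrl were -1.43 for miR-130b-3p, -1.17 for miR-744-5p, -2.53 for miR-1910-5p, -0.80 for miR-125b-1-3p and -1.86 for miR-92a-3p. miR-1910-5p had mean levels of only 3.21 CPM at DDR-Sen D16 and 20.0 CPM in Ctrl. A count of 3 corresponds to 7.78 and 5.75 CPM in the DDR-Sen D16 libraries, so its fall and its r rest on few counts. In mean log2 CPM, which uses the prior count, it differed from Ctrl by -1.65. At PMD-Sen D2 the 5 miRNAs were close to Ctrl, from 0.05 for miR-125b-1-3p to 0.32 for miR-744-5p, against 1.25 for miR-31-5p. miR-92a-3p had 6000 CPM in RS and 21894 CPM in Ctrl cells, whereas miR-31-5p had 8357 and 7386 CPM.

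**Figure D4:**
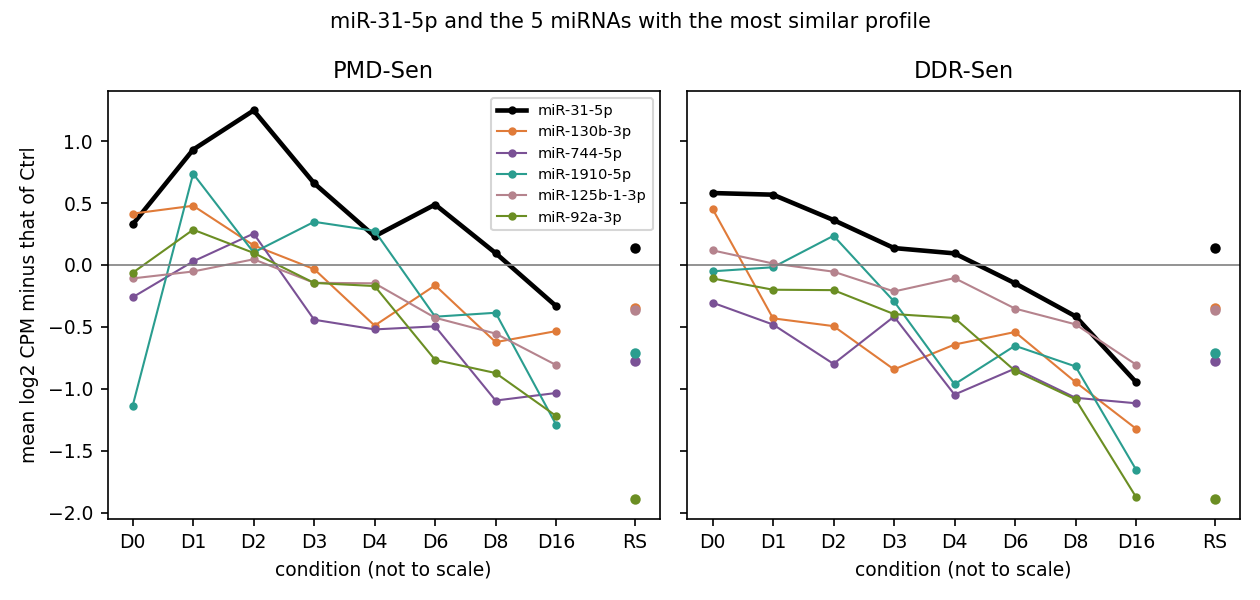
Mean log2 CPM minus that of Ctrl (y axis, mean of 2 libraries) for miR-31-5p, drawn thick, and the 5 miRNAs with the highest correlation to it, by condition (x axis, days not to scale) in PMD-Sen (left) and DDR-Sen cells (right), with RS repeated in both. All 6 lines lie below Ctrl at D16 in both panels, and only miR-31-5p exceeds 1, at PMD-Sen D2.

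Of 14 other miRNAs named as neighbours on the short arm of chromosome 9, 7 were listed and 2 passed the filter, miR-491-5p and miR-101-3p. miR-491 lies 796 kb from MIR31. miR-101-3p, which targets the Polycomb methyltransferase EZH2, is made from 2 gene copies, of which 1 is on chromosome 9 and the other on chromosome 1, and its counts cannot be assigned to either, while miR-101-5p, kept in the list, comes from the chromosome 1 copy. miR-491-5p had at most 38 counts in a library and was not called, with log2 fold changes of -0.29 at PMD-Sen D2, -0.32 at PMD-Sen D16, 1.12 in RS and -0.05 at DDR-Sen D16. miR-101-3p rose at PMD-Sen D16 by the thresholds of the study (1.08 ± 0.49, unadjusted p = 0.0354, adjusted p = 0.117, edgeR), as 16.9% of miRNAs met them in either direction. Its 2 libraries there had 428 and 117 CPM against 133 and 132 in Ctrl, so the rise came from 1 library.

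Among 13 miRNAs reported to target CDKN2A or its Polycomb repressors EZH2 and BMI1, all were listed and 9 were tested. At PMD-Sen D2 none of the 9 met both thresholds (edgeR), against 6.39% of all tested miRNAs, although miR-24-3p and miR-214-3p had an unadjusted p below 0.05, and the median was -0.05 against 0.04 over all miRNAs. At PMD-Sen D16, 1 rose (miR-101-3p, above) and 1 fell, with a median of 0.18 against 0.05, where 16.9% of all miRNAs were called. The one that fell was miR-200c-3p, an epithelial miRNA (-1.47 ± 0.62, adjusted p = 0.0892, edgeR), at 12.0 and 22.0 CPM against 68.8 and 22.9 in Ctrl. PMD-Sen D16 replicate 2 was thus close to Ctrl replicate 2, and miR-200c-3p had at most 38 counts in a library.

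At DDR-Sen D16 2 of the 9 fell and 0 rose (21.4% of all miRNAs called), with a median of 0.17 against -0.03. In RS cells 2 fell and 0 rose (22.2% called), with a median of -0.13 against 0.12. In both cases these were miR-15a-5p and miR-16-5p, which share a seed and restrain cyclins and BCL2. miR-16-5p had 1099 and 1241 CPM at DDR-Sen D16 and 1210 and 1162 CPM in RS, against 2896 and 3118 in Ctrl (-1.36 ± 0.26, adjusted p = 0.000275, and -1.34 ± 0.26, adjusted p = 0.000237, edgeR). miR-15a-5p had 38.9 and 42.2 CPM at DDR-Sen D16 and 16.7 and 12.9 CPM in RS, against 81.6 and 120 in Ctrl (-1.32 ± 0.55 and -2.79 ± 0.61, adjusted p = 0.082 and 0.00102, edgeR). miR-16-5p was thus low in both DDR-Sen D16 and RS cells, whereas miR-31-5p in RS cells overlapped Ctrl.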

How the data were processed

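Small RNA of 36 WI-38 libraries (18 conditions, 2 replicates) was analysed. The authors used the exceRpt pipeline, with GRCh38 as genome and miRBase as reference, for trimming, alignment and counting, and deposited expected counts per mature miRNA, not normalized. Counts were rounded, and 0 columns had no sample. Groups came from the sample labels. Libraries of successive days were taken as independent, and the labels do not say whether they came from the same cultures. edgeR 4.0.16 (R 4.3.3) was run with TMM, filterByExpr, all 36 libraries and the quasi-likelihood test on 360 miRNAs, with the thresholds of the study against Ctrl and Benjamini-Hochberg adjusted p below 0.05 elsewhere. log2 CPM used a prior count of 2. Permutation tests drew 100000 permutations. Total counts ranged from 81668 to 1933435, and the biological coefficient of variation was 20.9%. Replicates differed by more than counting error, with chi-square per degree of freedom of at least 4.31. Named miRNAs were the 2 arms, the 5 with the highest r, and list members meeting both thresholds at PMD-Sen D16, DDR-Sen D16 or RS; others (miR-6809-5p, miR-491-5p, miR-24-3p and miR-214-3p) were added after their values were seen. Members and lists were chosen with earlier results of these data known. Alternatives were DESeq2 1.42.0, other scalings, filters, a replicate block and leaving out libraries. Scripts were tested on simulated data. The mRNA data were not analysed here.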

Additional observations from a re-analysis of the deposited data

Results flagged for a closer look

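The 2 senescence series differed in miR-31-5p by a test of the difference itself in 2 comparisons. Over D1 to D16 the PMD-Sen minus DDR-Sen difference was 0.58 in log2 (1.5-fold, adjusted p = 4.42e-06, edgeR), with both PMD-Sen libraries above both DDR-Sen libraries on 6 of 7 days. That fit took the libraries of successive days as independent. At D2 the difference was 0.89 (1.85-fold, adjusted p = 0.0336, edgeR), with both libraries of PMD-Sen above both of DDR-Sen, as in 22.2% of the tested miRNAs. The D2 call was lost without PMD-Sen D2 replicate 2 (adjusted p = 0.507), DDR-Sen D2 replicate 1 (adjusted p = 0.299) or DDR-Sen D2 replicate 2 (adjusted p = 0.157, edgeR).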

How the results depend on the processing

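Alternatives gave 683 values for 39 results, of which 624 kept their direction and side of the threshold. miR-31-5p at PMD-Sen D2 against Ctrl met the thresholds under all 17 of its alternatives (1.10 to 1.38, adjusted p of 2.08e-05 to 0.0965), and the DDR-Sen decline stayed called under all 34 (-1.19 to -0.88). The comparison of the series without D2, the decline from D0 alone, and the fold threshold outside comparisons with Ctrl were chosen after seeing the data. Where a log2 value was small, its sign moved: DDR-Sen D3 against Ctrl was -0.049 with total counts, and DDR-Sen D4 against Ctrl was -0.17 with total counts, -0.029 with DESeq2 size factors or DESeq2 and -0.0017 with no filter. DDR-Sen D16 against Ctrl became called with total counts (-1.01) or a mean of at least 10 counts (-1.002), each close to the fold threshold.

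By the fold threshold, which is stricter by construction, 3 calls were lost: the D2 difference of the series (0.89), the difference over D1 to D16 (0.58) and the PMD-Sen decline (-0.75). The PMD-Sen decline was also lost against D0 alone (-0.25). DDR-Sen D16 against RS was lost with the 4 libraries alone (-1.09). The differences of the series on D3, D6 and D8 became called with the 4 libraries alone (0.59, 0.70 and 0.58). With the unadjusted p of DESeq2, which drops the adjustment, they were called on D3, D6, D8 and D16 (0.59, 0.69, 0.65 and 0.53), as was PMD-Sen D16 against RS (-0.54). The r of miR-31-3p against day in DDR-Sen cells was 0.0835 without D0. With a pseudocount of 2, the arm ratio against day in DDR-Sen cells became called (r = -0.572), as did its difference between the series (0.51). By Spearman's rho, 3 of the 5 most similar miRNAs were retained. The cause of these changes was not tested.

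With a library left out, the low-count filter kept 412 to 428 miRNAs in place of 360 (380 to 395 in place of 346 over D1 to D16), so those fits were also run with the original miRNAs held, a choice made after seeing the data. The ranges with the filter applied again, and then with the miRNAs held, were as follows. Against Ctrl they were 0.74 to 0.94 and 0.82 to 1.04 for PMD-Sen D1 (called without Ctrl replicate 1, miRNAs held), -0.11 to 0.59 and -0.091 to 0.55 for PMD-Sen D4, -0.157 to 0.48 and -0.157 to 0.43 for PMD-Sen D8, -0.026 to 0.25 and -0.040 to 0.30 for DDR-Sen D3, -0.10 to 0.15 and -0.018 to 0.21 for DDR-Sen D4, -1.14 to -0.84 and -1.06 to -0.81 for DDR-Sen D16, and -0.096 to 0.45 and -0.21 to 0.35 for RS. Between the series they were -0.68 to 0.035 and -0.60 to 0.13 on D0, 0.76 to 0.90 and 0.75 to 1.02 on D2, -0.075 to 0.50 and -0.18 to 0.45 on D4, and 0.45 to 0.57 and 0.48 to 0.63 over D1 to D16. They were 0.29 to 0.53 and 0.14 to 0.43 for the difference of the declines, -1.43 to -0.87 and -1.298 to -0.73 for DDR-Sen D16 against RS, and -0.80 to -0.25 and -0.71 to -0.12 for PMD-Sen D16 against RS. The calls gained for the difference of the declines and for PMD-Sen D16 against RS were absent with the miRNAs held. A lone sample left in a condition is assumed to vary like the others. Leaving out a replicate of every day gave r of -0.850 to -0.567 for miR-31-5p in PMD-Sen cells, not called without replicate 1, and -0.40 to 1.17 for the arm ratio between the series.

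Replicate numbers were not used to pair the samples. Over 153 pairs of conditions, the correlation of replicate deviations had a median of 0.04 (range, -0.458 to 0.366) and was over 0.1 in 53. In 13 of the 18 conditions the deviation correlated positively with the mean of the others. Whether replicates of the same number belong together was not tested. With the replicate block, PMD-Sen D2 against Ctrl was 1.25 (adjusted p = 0.00329, edgeR), the difference over D1 to D16 was 0.59, and no call of miR-31-5p changed. Depth limits miR-31-3p, at no more than 3 counts in 29 of the 36 libraries.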
